A study of Mus musculus with 6 samples.

Results

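The genes that copy the genome in S phase and divide it in mitosis were followed in unstimulated bone-marrow-derived macrophages (BMDMs) that lacked or carried CITED2. A fixed list of 47 gene symbols was looked up among the 22248 genes of the deposited table, and all 47 were present. The list holds 25 genes of S phase (origin licensing and the replicative helicase, the polymerases and their clamp, nucleotide supply, and S phase entry) and 22 genes of mitosis (cyclins and kinases, the spindle checkpoint, and chromosome, kinetochore and spindle proteins). Control BMDMs came from Lyz2cre mice and CITED2-deficient BMDMs from Cited2fl/fl:Lyz2cre mice, with 3 libraries in each group. Both genotypes were on the C57BL/6 background and both carried a Cre allele at Lyz2, so the allele was shared by the groups. Cre made from Lyz2 acts in myeloid cells, so Cited2 was deleted in those cells and their precursors that express Lyz2. The labels give an age of 10 weeks, while the methods of the study give a younger one. Bone marrow cells were grown with macrophage colony-stimulating factor, and no stimulus was added. The labels do not say whether each library was 1 mouse or a pool. The p-values set the difference between groups against the spread between libraries, which may be partly or wholly technical.

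In G1, the MCM2 to MCM7 proteins are loaded on origins as a ring with the help of CDC6 and CDT1, and in S phase this ring unwinds DNA ahead of the polymerases. E2F transcription factors switch on most of these genes, while genes of mitosis are switched on later through the MuvB complex with B-MYB and FOXM1. Macrophage colony-stimulating factor is a mitogen, and cultures of bone marrow progenitors divide before they settle as macrophages. In bulk RNA, fewer cycling cells and less RNA per cycling cell cannot be told apart.

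Promoter sequences are shown for 5 genes whose RNA changed, because the letters known from cell cycle promoters differ between them. Cenpa, Kif23, Mcm3 and Cdk1 had the 4 largest falls past the threshold among genes with a usable window, with at most 2 taken from a role, and Mcm6, a rise, was added after its values had been seen. Each is 150 bases from RefSeq (GRCm38.p6), 5′ to 3′ on the strand of the gene. Capitals mark the CCAAT box (CCAAT, read on the other strand as ATTGG), the CHR element (TTTGAA, read on the other strand as TTCAAA) and an E2F core (TTCCCGC, with the variants TTGGCGC, then TTCGCGC, and also TTGCCGC, and their reverse complements), which can overlap one another. The stretches are chr1:20820313-20820462 (minus strand) for Mcm3, chr1:128359706-128359855 (minus) for Mcm6, chr10:69352913-69353062 (minus) for Cdk1, chr5:30666657-30666806 (plus) for Cenpa and chr9:61946800-61946949 (minus) for Kif23. That of Cenpa ends 79 bases before the RefSeq start, and the others end at the base before it.
Mcm3: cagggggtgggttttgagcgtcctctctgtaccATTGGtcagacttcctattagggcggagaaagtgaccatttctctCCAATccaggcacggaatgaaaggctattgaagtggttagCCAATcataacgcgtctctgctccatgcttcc
Mcm6: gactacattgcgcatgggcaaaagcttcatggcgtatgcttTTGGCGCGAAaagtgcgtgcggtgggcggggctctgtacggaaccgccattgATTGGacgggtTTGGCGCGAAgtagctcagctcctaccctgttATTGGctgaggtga
Cdk1: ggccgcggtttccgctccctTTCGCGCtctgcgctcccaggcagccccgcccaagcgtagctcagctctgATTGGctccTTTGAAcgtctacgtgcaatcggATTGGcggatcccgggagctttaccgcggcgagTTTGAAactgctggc
Cenpa: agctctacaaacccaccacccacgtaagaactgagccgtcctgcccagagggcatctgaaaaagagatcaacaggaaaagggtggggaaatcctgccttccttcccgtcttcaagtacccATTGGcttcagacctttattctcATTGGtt
Kif23: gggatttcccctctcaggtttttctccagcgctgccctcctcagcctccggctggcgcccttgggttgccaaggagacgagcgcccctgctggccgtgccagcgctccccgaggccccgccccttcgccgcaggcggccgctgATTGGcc

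In the 250 bases searched, Mcm3 holds 3 CCAAT boxes and no E2F core, and Mcm6 holds 2 CCAAT boxes and 4 E2F cores, which overlap on the 2 strands. Cdk1 has 3 CCAAT boxes, 2 E2F cores and 2 CHR elements, the nearer CHR starting 15 bases before the start. Cenpa and Kif23 hold 2 and 1 CCAAT boxes and none of the other letters. A window was listed for 38 of the 47 genes. In 4 of these (Cdc6, E2f1, Kif2c and Mcm7) the start lies over 250 bases inside the gene as GENCODE draws it, so such a window may not be the main promoter. For this reason E2f1 is not shown, but all 4 stay in the counts below. Of them, Mcm7 holds CCAAT and an E2F core, Cdc6 an E2F core and Kif2c a CHR element. CCAAT stood in 27 of the 38 windows (71.1%), against 34.5% of 27025 genes. An E2F core stood in 9 of 20 S phase windows (45%) and 3 of 18 mitosis windows (16.7%), against 7.97% of all genes. CHR stood in 2 of the 20 S phase windows and 8 of the 18 mitosis windows (44.4%), against 16.3% of all genes. Split by the RNA result, an E2F core stood in 2 of 9 windows of genes that fell, 1 of 3 windows of genes that rose and 8 of 25 windows of genes that did not pass. CCAAT stood in 7, 2 and 18 of the same windows. CHR stood in 3 of 9 windows of genes that fell, 0 of 3 windows of genes that rose and 7 of 25 windows of genes that did not pass. A match of letters is a description of the window and not of a factor bound there.

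The depth recovered from the FPKM values was 17289286 to 18952077 fragments in control and 22583995 to 26100410 in CITED2-deficient libraries, on average 1.34 times the control depth. FPKM (fragments per kilobase, scaled to library size) were compared as log2(FPKM + 1) with limma over the 11687 genes with a mean of at least 1, with Benjamini-Hochberg adjustment and a threshold of 0.05. On this scale the change of a low gene comes out smaller than it was. Cited2 itself fell from 75.5 ± 3.79 FPKM to 8.01 ± 1.104 (SD, n = 3 each), so every library matched its genotype. Over all tested genes the log2 fold change had a median of -0.10. Of all calls, 32.5% were higher in CITED2-deficient BMDMs, and 52.0% under median-ratio scaling, in which the median gene is set equal across libraries.

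Most S phase and mitosis genes did not pass the threshold. Of the 46 genes tested, 4 were higher (Cdt1, Mcm6, Pcna and Tpx2), 9 were lower (Cenpa, Kif23, Mcm3, E2f1, Cdk1, Top2a, Mcm2, Mcm7 and Lig1) and 33 did not pass. Of all tested genes, 16.7% were called higher and 34.6% lower. In either direction 28.3% of the 46 were called, against 51.3% of all tested genes. Summed over the 22 mitosis genes, FPKM was 135 to 145 in control and 94.6 to 109 in CITED2-deficient libraries, a sum in which Cenpa weighed most. Over the 25 S phase genes it was 519 to 546 against 563 to 593, of which Pcna alone held 248 to 277 against 298 to 316. The sums do not give the direction of most genes. The median log2 fold change was -0.149 for the 24 tested S phase genes and -0.151 for the 22 mitosis genes. It was negative for 20 of the tested S phase genes and 16 of the mitosis genes, against 7744 of all 11687 tested genes. The list is weakly expressed, with a median control level of 5.76 FPKM against 15.4 for all tested genes. Among genes with a mean of at least 5 FPKM, 12 of 24 were called, against 56.2% of all such genes. Among those under 5 FPKM, 1 of 22 was called, against 37.0%. The median log2 fold change of the 46 was -0.15. After median-ratio scaling the same 4 genes were higher, against 23.1% of all tested genes, and 5 were lower (Cenpa, Kif23, Mcm3, E2f1 and Top2a), against 21.3%. The median became -0.070 against -0.0069 for all genes. Cdc6, which loads the helicase, was below the filter, with 0.952, 0.566 and 0.833 FPKM in control and 1.019, 0.769 and 0.992 in CITED2-deficient libraries.

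**Figure D1:**
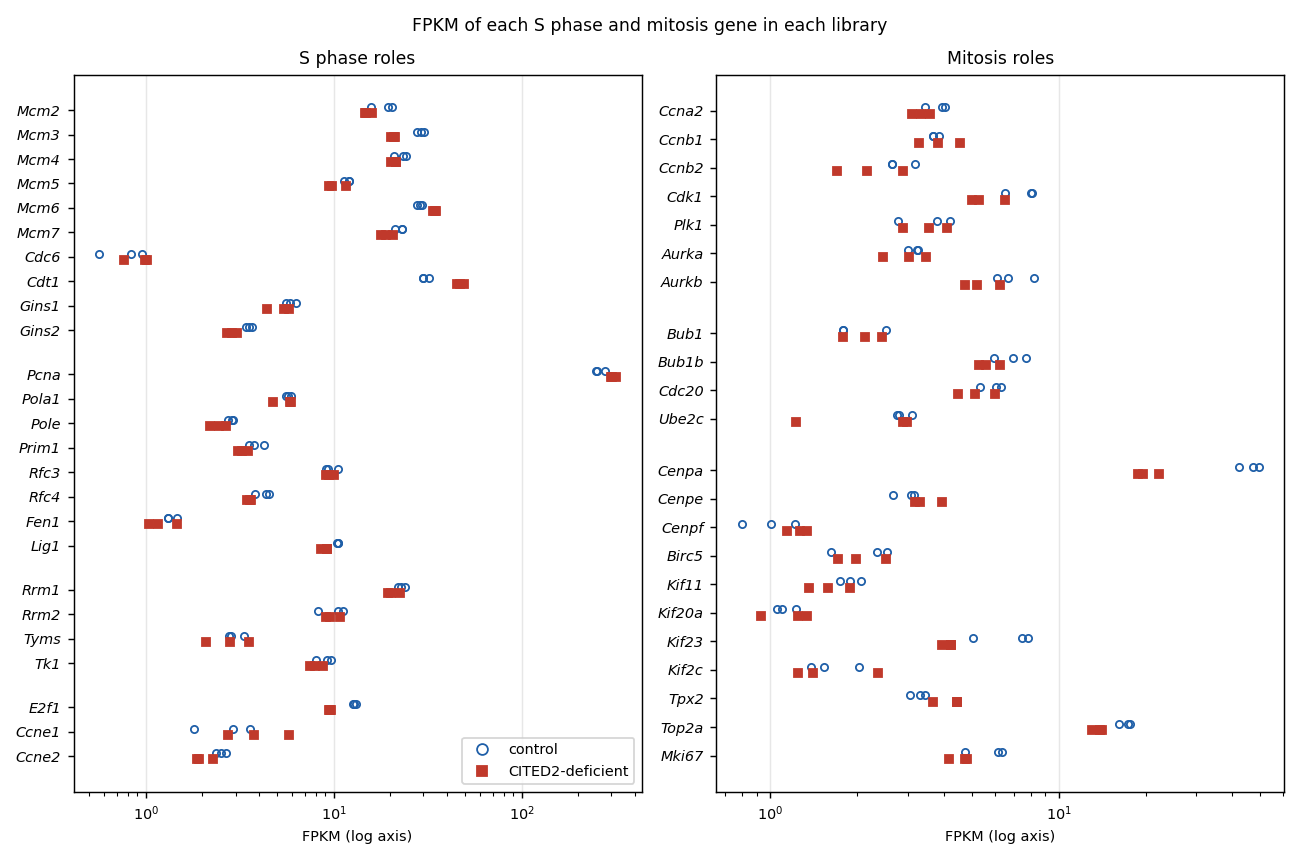
FPKM of the 47 genes on a log axis, with S phase genes on the left and mitosis genes on the right. Open circles are the 3 control libraries and squares the 3 CITED2-deficient libraries; Cenpa, Cdt1, Mcm3 and E2f1 separate clearly, and most mitosis genes lie between 1 and 8 FPKM with overlapping groups.

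Among the licensing and helicase genes, Cdt1 rose and all but 1 subunit of the helicase ring had a lower mean. CDT1 brings the MCM ring to origins and is held back outside G1 by geminin (Gmnn). Cdt1 (ENSMUSG00000006585, chromosome 8, 122568015 to 122573554 in mm10) stood at 32.1, 29.96 and 29.6 FPKM in control libraries and 49.6, 46.9 and 45.4 in CITED2-deficient libraries. The groups did not overlap, with a log2 fold change of 0.61 (SE, the standard error, 0.05, limma adjusted p = 8.8e-06). A read-through gene model, Gm20388, spans Cdt1 on the same strand and was not listed in the table. Mcm3 (ENSMUSG00000041859, chromosome 1, 20802968 to 20820312) stood at 29.1, 30.04 and 27.9 FPKM in control and 21.0, 20.1 and 20.9 in CITED2-deficient libraries, with a log2 difference of -0.47 (SE 0.05, limma adjusted p = 4.22e-05). Mcm6 (ENSMUSG00000026355, chromosome 1, 128331590 to 128359664) moved the other way, with 28.8, 29.4 and 27.8 FPKM against 34.6, 35.1 and 33.5. Every CITED2-deficient library was above every control library, with a log2 fold change of 0.26 (SE 0.04, limma adjusted p = 0.000973). These opposite changes are in subunits that meet in the ring in equal numbers.

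The other ring subunits had larger adjusted p-values in limma. Mcm7 passed with -0.21 (limma adjusted p = 0.0182) and did not overlap, at 21.1 to 23.0 FPKM in control and 17.9 to 20.6 in CITED2-deficient libraries. Mcm2 passed with -0.27 (limma adjusted p = 0.0308), but its groups overlapped, since control replicate 2 held 15.8 FPKM and CITED2-deficient replicate 1 held 15.9. Mcm5 (-0.19, adjusted p = 0.0715) and Mcm4 (-0.11, adjusted p = 0.153) did not pass in limma. All 5 subunits other than Mcm6 had a negative value under each of the 16 alternative settings. The call of Mcm7 was lost after median-ratio scaling (-0.12) and quantile normalization (-0.15) and when control replicate 1 (-0.19), control replicate 3 (-0.19) or CITED2-deficient replicate 2 (-0.17) was left out. That of Mcm2 was lost under 8 settings, namely both scalings, no filter, no variance trend, and the fits that left out control replicate 1 (-0.20), control replicate 3 (-0.23), CITED2-deficient replicate 2 (-0.25) or CITED2-deficient replicate 3 (-0.25). Mcm4 passed without control replicate 3 (-0.17) and Mcm5 without CITED2-deficient replicate 3 (-0.27). Gins1 and Gins2, subunits of the GINS complex that joins the ring at the active fork, did not pass. Gins2 was at 3.41 to 3.68 FPKM in control and 2.69 to 3.05 in CITED2-deficient libraries (-0.23, limma adjusted p = 0.0631), and Gins1 was at -0.16.

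**Figure D2:**
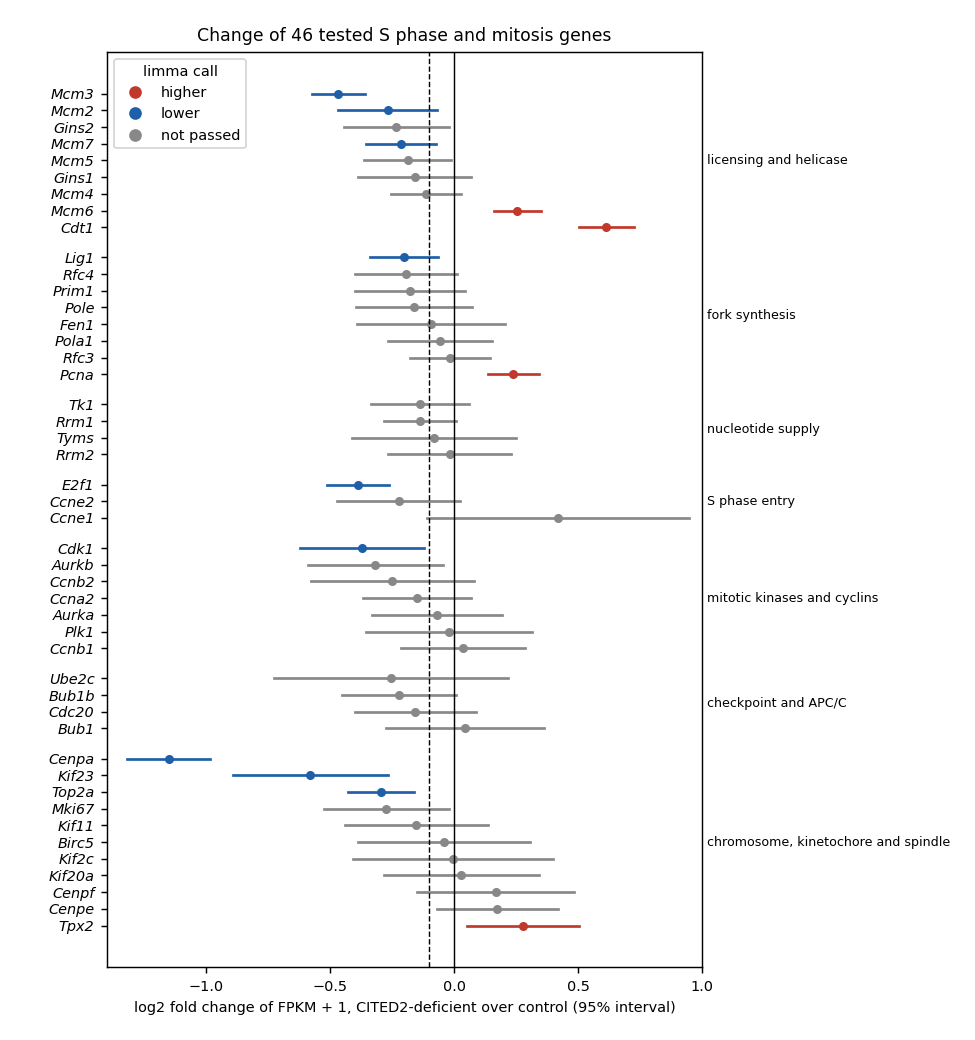
Log2 fold change (points) with its 95% interval (bars) for the 46 tested genes, grouped by role, CITED2-deficient over control. The solid line is no change and the dashed line the median of all tested genes (-0.10); Cenpa lies farthest left and Cdt1 farthest right of the called genes.

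Ratios between genes within a library do not depend on how libraries were scaled. Mcm6 over the geometric mean of the other 5 ring genes was 1.38, 1.53 and 1.40 in control and 2.07, 2.17 and 1.96 in CITED2-deficient libraries, 1.44-fold higher. Cdt1 over Gmnn was 1.77, 1.65 and 1.62 against 3.16, 3.499 and 2.91, and Gmnn itself was lower (-0.28, limma adjusted p = 0.00712). Pcna over 4 other fork genes (Rfc3, Rfc4, Fen1 and Lig1) was 48.9 to 58.9 against 68.4 to 70.9. Cenpa over the geometric mean of Cenpe and Cenpf was 23.7 to 32.2 against 9.66 to 9.78. In these 4 ratios the groups did not overlap, and an exact two-sided permutation test gave p = 0.1 each, the smallest it can give with 3 against 3 libraries (0.125 after adjustment over the 5 ratios computed). The fifth, Ccne1 over Ccne2, overlapped (0.712 to 1.51 against 1.47 to 2.99, exact permutation p = 0.2). The ratios were chosen after the values of the genes had been seen, so their p-values are not an independent test.

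**Figure D3:**
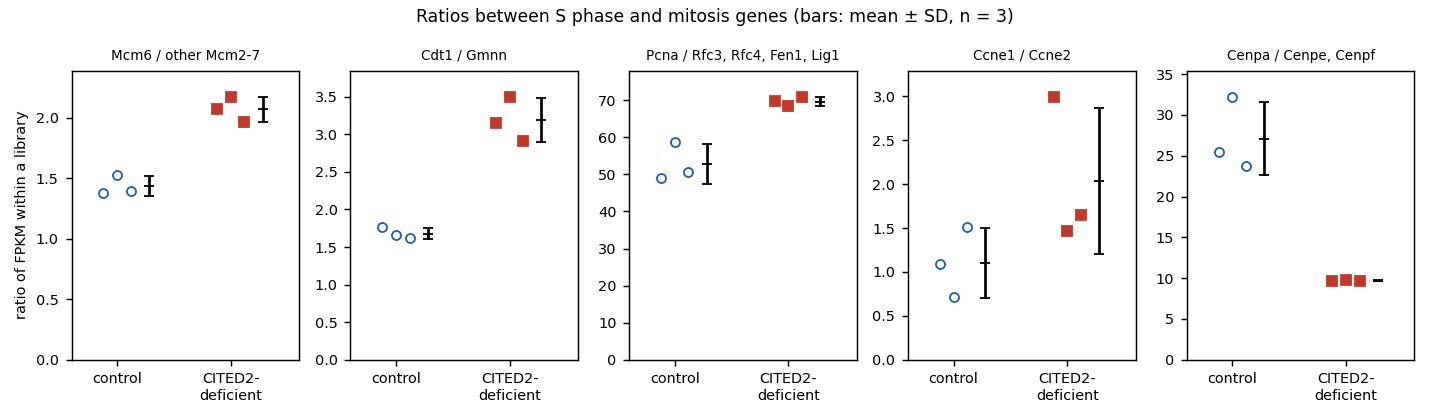
The 5 ratios of FPKM within each library. Circles are control and squares CITED2-deficient libraries, and black bars give the mean ± SD (n = 3). Mcm6 over the other ring genes, Cdt1 over Gmnn and Pcna over other fork genes are higher in all CITED2-deficient libraries, Cenpa over Cenpe and Cenpf is lower in all, and Ccne1 over Ccne2 overlaps.

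Among the genes of DNA synthesis, Pcna rose and Lig1 fell. PCNA is the sliding clamp that holds polymerases on DNA, and LIG1 is the ligase that seals Okazaki fragments. Pcna (ENSMUSG00000027342, chromosome 2, 132249162 to 132253314) was the most abundant gene of the list, with 251, 277 and 248 FPKM in control and 316, 298 and 301 in CITED2-deficient libraries. The groups did not overlap, with a log2 fold change of 0.24 (SE 0.05, limma adjusted p = 0.00212). Its near copy Pcna-ps2 was listed at 0.368 to 0.588 FPKM in control and 0.701 to 0.939 in CITED2-deficient libraries, so fragments could have been divided between them in small part. Lig1 stood at 10.4, 10.5 and 10.6 FPKM against 9.22, 9.18 and 8.56 (-0.20, limma adjusted p = 0.0199). Lig1 did not pass under either scaling (-0.11 each) or when the third library of either group was left out (-0.20 for control, -0.17 for CITED2-deficient). The 6 others, the polymerase genes Pola1, Pole and Prim1, the clamp loader genes Rfc3 and Rfc4 and the flap endonuclease gene Fen1, did not pass, with values from -0.19 for Rfc4 to -0.02 for Rfc3. Pole, Prim1 and Rfc4 were lower in every CITED2-deficient library than in any control library.

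None of the genes of nucleotide supply passed in limma, and none of the 4 had an unadjusted limma p under 0.05. Such a p was found for 17 of the 46 genes of the list and for 6682 of all 11687 tested genes. Rrm1 and Rrm2, the subunits of ribonucleotide reductase, were at -0.14 (95% interval -0.28 to 0.01) and -0.02 (-0.27 to 0.23). Tyms, thymidylate synthase, was at -0.08 (-0.41 to 0.25), and Tk1, thymidine kinase, at -0.14 (-0.34 to 0.06). Rrm1 passed without CITED2-deficient replicate 1 (-0.20). Rrm2 ranged from 8.27 to 11.2 FPKM in control and from 9.07 to 10.8 in CITED2-deficient libraries, so the spread within a group exceeded the difference.

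E2f1, an activator of S phase genes, fell. E2f1 (ENSMUSG00000027490, chromosome 2, 154559407 to 154569892) stood at 13.1, 12.7 and 12.7 FPKM in control and 9.45, 9.70 and 9.54 in CITED2-deficient libraries. The libraries of each group were close and the groups far apart, with a log2 fold change of -0.39 (SE 0.06, limma adjusted p = 0.000362). The E cyclins, which drive CDK2 at the start of S phase, did not pass. Ccne1 was spread widely, at 2.92, 1.80 and 3.58 FPKM against 5.74, 2.75 and 3.74 (0.42, 95% interval -0.11 to 0.95), with CITED2-deficient replicate 1 the highest. Ccne2 was at 2.37 to 2.68 against 1.87 to 2.27 FPKM (-0.22, limma adjusted p = 0.119).

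Of the 7 mitotic cyclins and kinases, Cdk1, the kinase that starts mitosis, was called lower. It stood at 8.09, 7.99 and 6.51 FPKM in control and 6.50, 4.996 and 5.29 in CITED2-deficient libraries, so the groups all but touched (-0.37, SE 0.11, limma adjusted p = 0.02004). The call was lost under 6 settings, namely no filter, median-ratio scaling (-0.28), and the fits that left out control replicate 1 (-0.32), control replicate 2 (-0.33), CITED2-deficient replicate 2 (-0.31) or CITED2-deficient replicate 3 (-0.34). Its cyclin partners did not pass. Ccna2 stood at 3.45 to 4.05 FPKM in control and 3.11 to 3.57 in CITED2-deficient libraries (-0.15), Ccnb1 at 3.67 to 3.86 against 3.29 to 4.56 (0.04) and Ccnb2 at 2.64 to 3.18 against 1.71 to 2.88 (-0.25), all with overlapping groups. Plk1, the Polo-like kinase, was at -0.02 with a 95% interval of -0.36 to 0.31, and Aurka, the Aurora kinase of the spindle poles, at -0.07 (-0.33 to 0.19). Aurkb, the Aurora kinase of the chromosomal passenger complex, stood at 6.67, 6.14 and 8.20 FPKM against 6.28, 5.21 and 4.75 and missed the threshold (-0.32, limma adjusted p = 0.0525). It passed without control replicate 2 (-0.40) or CITED2-deficient replicate 1 (-0.41), with array weights and with a filter of 5 FPKM.

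The 4 genes of the spindle checkpoint and the anaphase-promoting complex did not pass in limma. Of them, 0 had an unadjusted limma p under 0.05, against 6682 of all 11687 tested genes. The checkpoint kinase genes Bub1 and Bub1b were at 0.04 and -0.22, and the activator Cdc20 at -0.16. The ubiquitin-conjugating enzyme gene Ube2c was at -0.25 with an interval of -0.73 to 0.22, since CITED2-deficient replicate 2 held 1.23 FPKM while the 2 others held 2.99 and 2.89. Bub1b passed without control replicate 2 (-0.31).

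Cenpa had the largest change of the 47 genes. CENP-A is the histone H3 variant that marks the centromere, and it is made in G2 and loaded in the next G1. Cenpa (ENSMUSG00000029177, chromosome 5, 30666777 to 30674830) stood at 49.3, 47.02 and 42.2 FPKM in control and 22.3, 19.6 and 18.8 in CITED2-deficient libraries. The log2 fold change was -1.15 (SE 0.07, limma adjusted p = 2.21e-06), rank 126 among the falls of 11687 genes, and the only change of 2-fold or more in the list. The values rest on 957 to 1115 fragments in control and 531 to 677 in CITED2-deficient libraries, and GENCODE draws no other gene over Cenpa. It was also far more abundant than the other Cenp genes of the list, Cenpe and Cenpf, which stood at 2.66 to 3.95 and 0.800 to 1.34 FPKM over the 6 libraries. Both of those had a higher mean in CITED2-deficient BMDMs (0.17 each) and did not pass.

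Kif23, a kinesin of the central spindle and cytokinesis, fell from 7.45, 5.05 and 7.86 FPKM to 4.24, 3.93 and 4.24 (ENSMUSG00000032254, chromosome 9, 61915905 to 61946774). Its log2 fold change was -0.58 (SE 0.14, limma adjusted p = 0.00699), with a range of -0.75 to -0.48 over the alternatives. Top2a, the topoisomerase that untangles sister chromatids (ENSMUSG00000020914, chromosome 11, 98992943 to 99024189), fell from 17.3, 17.7 and 16.1 to 14.1, 13.9 and 13.02 FPKM (-0.30, SE 0.06, limma adjusted p = 0.00262). Neither overlapped between groups. Tpx2, which activates Aurora A on spindle microtubules, rose from 3.31, 3.05 and 3.45 to 4.44, 3.67 and 4.43 FPKM (0.28, limma adjusted p = 0.0439). Its call was lost without a filter and when any 1 control library (0.24 to 0.31), CITED2-deficient replicate 1 (0.24) or CITED2-deficient replicate 3 (0.24) was left out.

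The proliferation marker Mki67 stood at 6.37, 4.75 and 6.17 FPKM in control and 4.74, 4.80 and 4.16 in CITED2-deficient libraries. It missed the threshold (-0.27, limma adjusted p = 0.0665) and overlapped through control replicate 2. It passed without that library (-0.39, adjusted p = 0.0118), with array weights and with limma-voom on recovered fragments (-0.34, adjusted p = 0.00564). The motors Kif11 (-0.15), Kif20a (0.03) and Kif2c (-0.0043) and the passenger protein gene Birc5 (-0.04) did not pass in limma. Kif20a and Kif2c rest on 28 to 81 fragments a library, and the interval of Kif2c ran from -0.41 to 0.40.

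Over the 46 genes, the groups did not overlap for 18, with CITED2-deficient libraries higher for 5 and lower for 13. Of all tested genes, 59.9% did not overlap, 19.0% higher and 40.9% lower. The libraries did not deviate alike: CITED2-deficient replicate 1 held the highest value of its group for 28 of the 46 genes, against 9 for each of the others, and control replicate 2 held the lowest of its group for 24. These orders were not counted over all tested genes, so they are not known to be particular to the list. CITED2-deficient replicate 1 was also the library with the most RNA of fibroblast and stromal markers. All 14 tested genes of that 16-gene list were higher in CITED2-deficient BMDMs, the sum of the list was 84.7 to 102 FPKM in control libraries against 838, 321 and 325 in CITED2-deficient replicates 1 to 3, and none was at 0. Lum and Thy1 were below the filter with overlapping groups. The mean of Lum was lower in CITED2-deficient libraries (0.162 against 0.0998 FPKM) and that of Thy1 higher (0.415 against 0.621). Without CITED2-deficient replicate 1, 14 of the 46 genes were called, 3 higher and 11 lower, against 15.0% higher and 31.7% lower of all genes in the same fit. The presence of fibroblast and stromal cells and their part in the results were not tested.

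Other cells of the marrow can also cycle, and their markers were read in the same libraries. Genes of granulocytes and their precursors were lower for 7 and higher for 2 of 11 tested, with a list sum of 749.9 to 817 FPKM in control and 668 to 787 in CITED2-deficient libraries. Mpo, a granule gene of early precursors, had the largest fall of that list, at 13.6 to 17.8 FPKM against 1.70 to 2.24. The 2 that rose were Ltf (91.4 to 99.8 FPKM against 162 to 185) and Mmp8 (2.36 to 2.55 against 4.12 to 5.37). S100a9 and Cebpe did not pass. Of the 8 stem and progenitor markers only Kit and Cd48 passed the filter. Cd48, which many leukocytes also express, was lower, at 181 to 187 FPKM against 138 to 139 (-0.41, limma adjusted p = 2.88e-06), and Kit did not pass, at 1.27 to 1.34 against 0.970 to 1.28. Of the 6 below the filter, Sox4 stood at 0.275 to 0.446 FPKM against 0.536 to 0.804 and Meis1 at 0.679 to 0.939 against 0.383 to 0.595, neither tested, and the groups of the other 4 overlapped. The 8 macrophage markers were all tested and summed to 5671 to 5724 FPKM in control and 5050 to 5160 in CITED2-deficient libraries. Of them, 1 was higher (Fcgr1) and 6 were lower. Lyz2, the locus of the Cre allele, was among the lower, at 30.6 to 32.5 FPKM against 9.39 to 10.0. Lymphocyte markers summed to 1.44 to 2.81 against 2.99 to 3.53 FPKM, and dendritic cell markers to 0.680 to 0.969 against 1.61 to 1.90. Only Ebf1 of the lymphocyte list passed the filter, and it was higher (0.415 to 0.590 FPKM against 1.48 to 1.69). Cd79a had a lower mean (0.919 against 0.761). No dendritic cell marker passed the filter, and Clec9a differed most in that list, at 0.231 to 0.592 FPKM against 1.01 to 1.36. The erythroid list passed the filter only through Tfrc, which many cells express (lower). The megakaryocyte list had 2 genes higher (Itga2b and Ppbp) and 1 lower, Pf4, at 310 to 337 FPKM against 70.6 to 79.7. Its sum was mostly Pf4, at 314 to 343 FPKM in control and 78.4 to 89.7 in CITED2-deficient libraries. None of these lists had a gene at 0 in all libraries, and their part in the results was not tested.

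Genes of the same pathways outside the list also moved in both directions, and the background for each count is again 16.7% of all tested genes higher and 34.6% lower. Of 43 other replication genes tested, 5 were higher (11.6%) and 12 lower (27.9%), and their median was -0.07. Of 65 other mitosis genes, 3 were higher (4.62%) and 11 lower (16.9%), with a median of -0.10. Over the related lists together, Dck, deoxycytidine kinase of the nucleoside salvage pathway, rose most, from 40.5 to 134 FPKM (1.71, limma adjusted p = 1.48e-08), followed by Timeless, a fork protection factor (2.30 to 5.58 FPKM, 1.00), and the condensin II gene Ncapg2 (37.6 to 68.8 FPKM, 0.86). The largest falls were Stmn1, which destabilizes microtubules (34.1 to 17.3 FPKM, -0.94), the condensin I gene Ncaph (6.25 to 3.92, -0.56) and the polymerase delta subunit gene Pold4 (28.3 to 19.8, -0.49). All 6 passed the threshold with no overlap between groups. Of 19 regulators of the E2F, RB, MuvB and FOXM1 system, 8 were lower (42.1%) and 1 was higher (5.26%), with a median of -0.10, against -0.10 for all tested genes. The retinoblastoma gene Rb1 (67.4 to 51.9 FPKM) and its relative Rbl2 (28.01 to 22.0 FPKM) were lower, while the third pocket protein gene, Rbl1, was the one higher (7.46 to 9.84 FPKM). These 3 and the other calls of the regulators were chosen for naming after their values were seen, and E2f5, E2f6, Tfdp1, Tfdp2, Rbbp4 and Lin52 made up the rest of the falls. All 127 related genes together gave 9 higher (7.09%) and 31 lower (24.4%) calls.

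**Figure D4:**
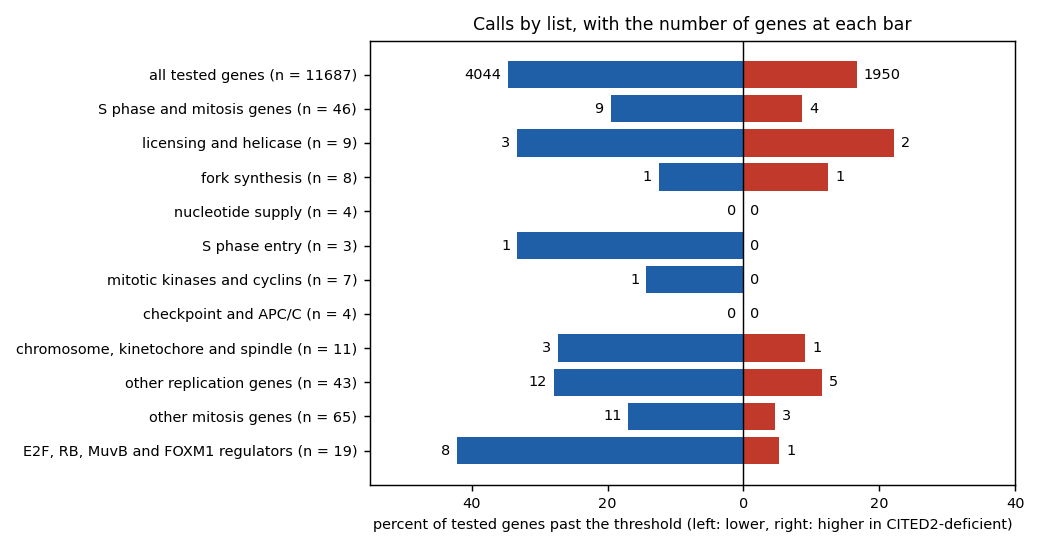
Share of tested genes past the threshold in each list, lower to the left and higher to the right, with the number of genes beside each bar. The list of 46 tested genes has 9 lower and 4 higher, both shares below those of all 11687 tested genes.

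The calls differed in how firmly they stood. Of the 13, 8 passed in every alternative setting in which they were tested (Cenpa, Cdt1, Mcm3, E2f1, Mcm6, Pcna, Kif23 and Top2a), and 5 did not (Mcm2, Mcm7, Lig1, Cdk1 and Tpx2). No called gene changed sign in any of the 16 alternatives. Of the 33 genes that did not pass, 9 passed under at least 1 alternative, those not yet named being Gins2, Rfc4 and Ccne2, each without the variance trend. Of the 5, Mcm7 overlaps Ap4m1 and Cops6 and Lig1 overlaps Zswim9, all on the opposite strand, and how strand was treated in the counting was not stated. Levels of different genes are divided by the mean length of all annotated transcripts of each gene, which is shorter than the main messenger RNA for several of them, so the order of levels between genes is approximate.

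**Figure D5:**
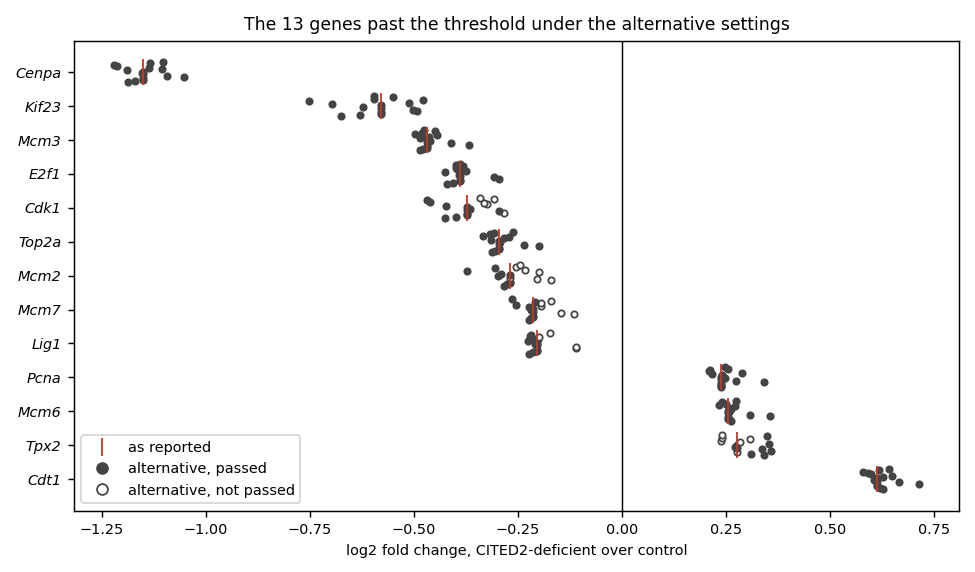
Log2 fold change of the 13 called genes as reported (red tick) and under the alternative settings (circles, filled where the gene passed). The 8 firm genes have filled circles throughout, and Mcm2, Mcm7, Lig1, Cdk1 and Tpx2 have open circles.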

How the data were processed

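RNA from 3 control and 3 CITED2-deficient BMDM libraries was analysed. The authors removed ribosomal RNA, made stranded libraries, aligned reads to mm10 with STAR and deposited FPKM per gene and library from Cuffdiff with GENCODE (versions not given in the sources used here). Fragments were recovered from the deposited FPKM with the mean transcript length of GENCODE vM21, cut to a whole number, and 96.1% of 22239 matched genes were whole to a tolerance of 0.02 in each of the 6 libraries. Genes whose FPKM averaged 1 or more were fitted by limma 3.58.1 (R 4.3.3) on log2(FPKM + 1), with a variance trend, Benjamini-Hochberg adjustment and a threshold of 0.05, and the genes of interest were read from that fit. The study's Cuffdiff test needs alignments and was not repeated. Steps were tested on simulated data.

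The 47 genes, the lists and the tests were chosen with earlier results of these data known. All 47 may be named, with the 3 largest rises and falls of the related lists. Listed genes with no match by symbol were not analysed here. The strand setting of the counting is not given, so genes that overlap another (such as Ccne2, Gins2 and Kif20a) may hold its fragments. Alternatives were other pseudocounts, filters, scalings, variance models, a replicate block and each library left out. Counting error limits genes of low FPKM.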

Additional observations from a re-analysis of the deposited data

How the results depend on the processing

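Each result was recomputed with pseudocounts of 0.1 and 0.5, without the filter or with one of 5 FPKM, with median-ratio scaling, quantile normalization, no variance trend, array weights, a replicate block, limma-voom on recovered fragments, and each library left out. Scaling moved the median log2 fold change of the 46 genes most. Single libraries mattered as much for the calls. Leaving out control replicate 2, control replicate 3 or CITED2-deficient replicate 3 kept the call of 41 of the 46 genes in each fit. Median-ratio scaling kept 42 and quantile normalization 43. Median-ratio scaling gave 5 falls among the S phase and mitosis genes in place of 9, 19 in place of 31 among the related genes and 2490 in place of 4044 among all genes. The median log2 fold change of the 46 genes, -0.15, was -0.070 under it and -0.086 under quantile normalization. A filter of 5 FPKM left 5 rises among the related genes, since fewer were tested. Without 1 library, 9 to 14 of the 46 genes were called, 3 or 4 higher and 6 to 11 lower, with a median of -0.18 to -0.13. Over all genes 5226 to 5467 were called, and 32 to 40 of the related genes. Cited2 was at -3.19 to -3.03. Same-numbered libraries did not deviate together (correlations 0.01, 0.01 and 0.04), and not every library correlated best with its own number, so the numbers were not read as pairs. With the replicate block 13 of the 46 genes and 5708 of all genes were called, and the call of no gene of the 46 changed. Counting error is largest for genes of few fragments. Of those under 5 FPKM, 1 of 22 was called, against 37.0% of all genes under 5 FPKM, and the cause was not tested.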
